A study of Mus musculus with 6 samples.

Results

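Complex I, the NADH:ubiquinone oxidoreductase of the inner mitochondrial membrane, was followed through the genes whose symbol begins with Nduf. Of 32201 genes in the deposited table, 50 carry such a symbol. They comprise 37 structural subunits, 8 assembly factors named Ndufaf, and 5 other rows: Ndufa4, Ndufa4l2 and 3 processed pseudogenes. A filter on expression (1 FPKM on average) kept 49 of the 50. The pseudogene Ndufs6b had 0 counts in each library, which allows a level of up to 3 counts per library (0.044 to 0.0496 CPM, counting error only). FPKM is the fragment count scaled to transcript length and library size, and CPM is the count scaled to library size with TMM factors.

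The libraries are total RNA from hippocampus of male C57BL/6N mice aged 8 weeks, all kept under chronic unpredictable mild stress (water deprivation, restraint, cage tilt and other stressors in turn), which is used as a rodent model of depression. Baicalin, a flavone glucuronide from Scutellaria root, was given at 20 mg/kg to the mice of 3 libraries, and saline to the mice of the other 3. Unstressed controls are not analysed here, so both groups carry the stress. The labels do not state that libraries came from different mice, and the p-values then describe library-to-library spread that may be technical. In bulk tissue, fewer cells of a type and less RNA per cell cannot be told apart.

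The complex passes electrons from NADH to ubiquinone and pumps protons, and it is a main entry point into the respiratory chain, on which neurons rely for ATP. Its peripheral arm holds the N module, where NADH is oxidised, and the Q module, where ubiquinone is reduced. A membrane arm, with proximal and distal parts, holds the proton channels. The mitochondrial genome encodes the channel subunits, and nuclear Nduf genes encode the rest, a core with the flavin and iron-sulfur clusters and an accessory shell. Assembly factors build or modify intermediates and are absent from the finished enzyme.

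Promoter sequence is given for the 3 structural subunits with the largest positive log2 changes and for the assembly factor with the largest. Whether promoter sequence bears on the changes was not tested. The stretches run from 170 bases before the RefSeq transcription start to 30 bases after it (build GRCm38.p6, 5′ to 3′ on the gene's strand). They lie at chr10:94198865-94199064 (+) for Ndufa12, chr7:3617203-3617402 (+) for Ndufa3, chr13:73328453-73328652 (-) for Ndufs6 and chr4:24897913-24898112 (+) for Ndufaf4. The deposited coordinates start Ndufa12 further upstream, at 94198720, so its stretch lies within the gene as placed there. Capitals mark matches on either strand to the letters of NRF1 (GCGCA and GCGC with any base between) or of YY1 (AAGATGGC), factors known to act at respiratory genes.
Ndufa12: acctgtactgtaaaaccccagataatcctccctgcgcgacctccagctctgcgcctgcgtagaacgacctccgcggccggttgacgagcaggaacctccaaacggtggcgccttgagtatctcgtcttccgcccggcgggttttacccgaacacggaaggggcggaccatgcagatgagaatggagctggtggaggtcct
Ndufa3: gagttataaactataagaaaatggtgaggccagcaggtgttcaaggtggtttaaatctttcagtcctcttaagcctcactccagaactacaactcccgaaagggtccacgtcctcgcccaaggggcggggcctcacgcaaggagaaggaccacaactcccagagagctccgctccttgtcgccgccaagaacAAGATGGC
Ndufs6: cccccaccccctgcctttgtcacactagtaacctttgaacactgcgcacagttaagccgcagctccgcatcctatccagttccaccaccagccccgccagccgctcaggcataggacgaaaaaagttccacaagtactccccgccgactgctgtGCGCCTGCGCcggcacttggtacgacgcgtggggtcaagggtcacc
Ndufaf4: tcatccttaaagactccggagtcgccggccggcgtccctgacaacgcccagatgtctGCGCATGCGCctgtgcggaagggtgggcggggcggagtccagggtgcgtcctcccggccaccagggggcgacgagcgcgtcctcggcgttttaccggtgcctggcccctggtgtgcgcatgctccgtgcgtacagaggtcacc

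RefSeq windows of 300 bases, the first listed for each gene, matched 33 structural subunits and 7 assembly factors. The NRF1 letters stood in 7 of the 33 structural windows (21.2%) and in 2 of the 7 assembly factor windows (28.6%), against 4.78% of 27025 windows of all genes. The YY1 letters stood in 7 structural windows (21.2%) and 1 assembly factor window (14.3%), against 2.88% of all. For the ETS letters CCGGAAG the counts were 4 (12.1%) and 2 (28.6%), against 9.12%, and for the ERR letters AAGGTCA 3 (9.09%) and 0 (0%), against 4.66%. The GC box GGGCGG stood in 15 structural (45.5%) and 6 assembly factor windows (85.7%), against 35.9%, and TATAAA in 4 (12.1%) and 0 (0%), against 14.2%. Both strands were searched and windows may hold several of these; GC content was 59.3% in the median structural window and 60.7% in the median assembly factor window, against 52.7% over all. Of the stretches printed above, which are shorter than these windows, that of Ndufa12 holds neither NRF1 nor YY1 letters. That of Ndufa3 holds YY1, and those of Ndufs6 and Ndufaf4 hold NRF1. The longer Ndufs6 window holds YY1 letters as well. A match is a string of letters only.

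Structural subunits had small positive log2 changes with baicalin, and none passed the adjusted threshold of 0.05. Of 37 subunits 35 had positive log2 changes, where 49.8% of all 13153 tested genes did. Their median log2 change was 0.15, up to 0.39 for Ndufa3, and that of all tested genes was -0.00062. In edgeR (quasi-likelihood test, p-values adjusted by Benjamini-Hochberg over all tested genes) 0 of 37 passed, against 0.0456% of all genes. At an unadjusted p under 0.05, 15 of 37 were higher, against 6.34% of all genes, and 0 were lower, against 5.46%. DESeq2 called 3 of 37 higher (Ndufa12, Ndufb9 and Ndufa13), against 0.974% of all genes, and 0 lower, against 0.632%; limma on log2(FPKM + 1) called 0. When baicalin library 2 was left out the 15 became 8, and when baicalin library 3 was left out 9. Omission of saline library 2 gave 8, as did omission of saline library 3. With summed FPKM made equal in all libraries (TPM scaling), which moves the median of all genes to -0.081, the structural median was 0.072 and 26 of 37 were positive, against 29.2% of all genes. Under that scaling 5 of 37 were higher at an unadjusted p under 0.05, against 2.48% of all genes.

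**Figure D1:**
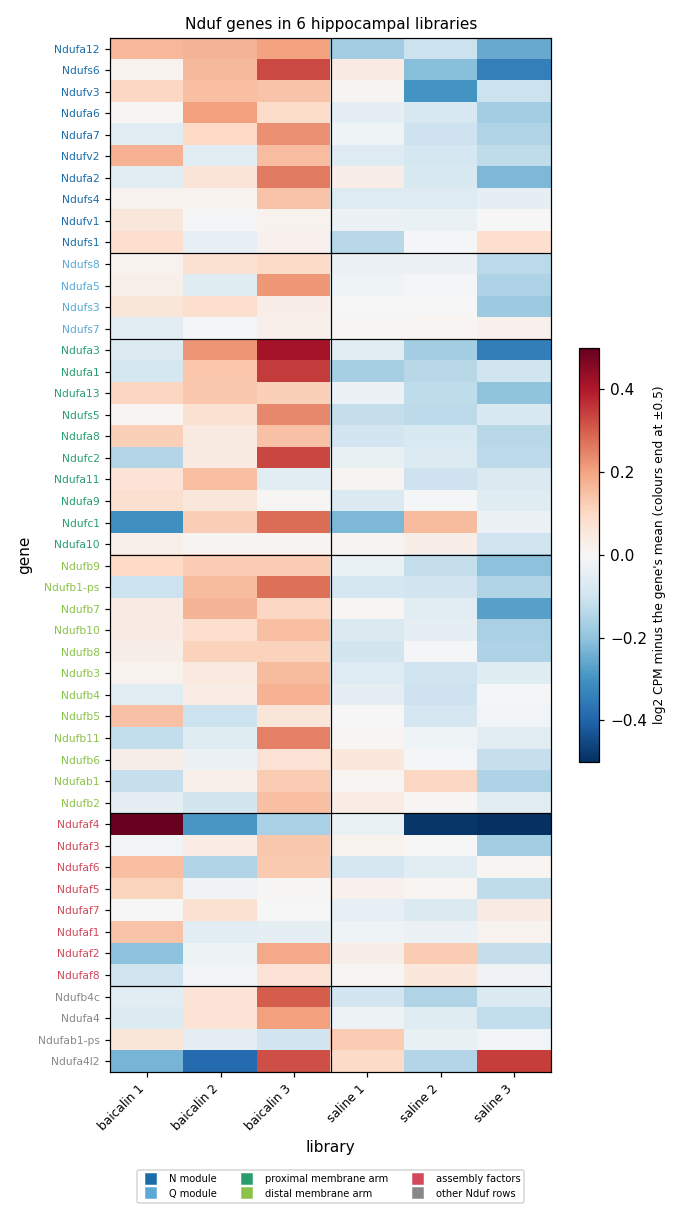
Each row is 1 of 48 tested Nduf genes and each column 1 library; colour is log2 CPM minus the gene's mean over the 6 libraries. Most structural rows are red in baicalin library 3 and blue in saline library 3, while Ndufaf4 stands out in baicalin library 1.

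Values of the 2 groups did not overlap for 17 of the 37 structural subunits, all higher with baicalin, which is 45.9% where 9.93% of all tested genes were higher without overlap. For 0 of 37 the baicalin values all lay below the saline ones, against 9.52% of all genes. Under TPM scaling the 17 became 7, where 4.04% of all genes were higher without overlap. The highest library was baicalin 3 for 23 subunits, baicalin 2 for 8 and baicalin 1 for 5, against 21.1%, 15.4% and 14.5% of all genes, and a saline library for 1. Their mean log2 CPM, relative to each gene's mean, was 0.006, 0.061 and 0.15 in baicalin libraries 1 to 3, against -0.041, -0.059 and -0.12 in saline libraries 1 to 3. Baicalin library 1 thus lay near 0 and baicalin library 3 highest. Without baicalin library 3 the median log2 change was 0.11, and 13 of the 35 positive values were then lower by over 1.5 times.

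Exon length moved with these values. It is the sum of all annotated exons of a gene, which can exceed the length of the transcripts present. In the shortest of 5 bins of exon length (2630 genes, median 1049.5 bp), the same mean was -0.023, 0.052 and 0.12 in baicalin libraries 1 to 3, against -0.036, -0.054 and -0.06 in saline libraries 1 to 3. The order of the baicalin libraries was thus the same as for the structural subunits, whose median exon length was 1569 bp against 4098 bp over all tested genes. Over all genes, the median log2 change of the shortest bin was 0.11 and that of the longest -0.069. Among the 37 subunits, log2 change and log2 length had a Pearson r of -0.43 (Spearman rho -0.44) across genes, which share the libraries and are not independent. With the length trend of all genes removed, 32 of 37 were positive, with a median of 0.07, and 22 of the 35 values that were positive before were lower by over 1.5 times. For genes with long annotated exons, such as Ndufb2 (5628 bp), removal of the trend may correct too little. The part of length in the result was not tested further.

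**Figure D2:**
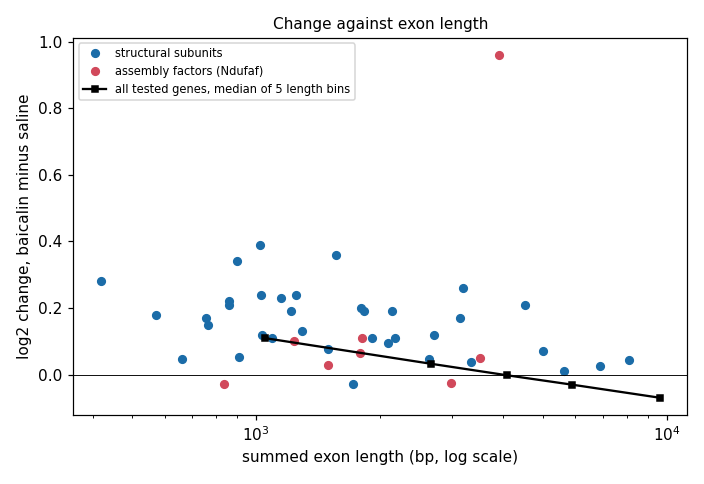
Points are structural subunits (blue) and assembly factors (red), with summed exon length on a log axis and the log2 change, baicalin minus saline, on the other; black squares are medians of all tested genes in 5 length bins. Most structural points lie above the black line, which runs from 0.11 in the shortest bin to -0.069 in the longest.

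The share of counts from the mitochondrial chromosome was 7.74, 7.71 and 8.69% in baicalin libraries 1 to 3, against 7.18, 7.24 and 7.82% in saline libraries 1 to 3. Totals were 61303274 to 64983755 counts with baicalin and 65989141 to 67957752 with saline. Neuronal markers (Rbfox3, Snap25 and 4 others, 6 of 6 tested) summed to 937 to 954 FPKM with baicalin and 918 to 979 with saline, as the tissue label calls for. The 5 markers of CA1 pyramidal cells summed to 93.3 to 118 FPKM with baicalin and 116 to 126 with saline, and the 5 of dentate granule cells to 54.8 to 57.8 and 35.3 to 58. The 6 astrocyte markers summed to 275 to 292 and 265 to 303 FPKM, the 6 oligodendrocyte markers to 337 to 416 and 343 to 397, the 5 microglial markers to 61.2 to 73 and 66.8 to 69.8, and the 4 endothelial markers to 27.9 to 33.3 and 27.9 to 31.2, with baicalin and with saline in that order. Choroid plexus markers (5) summed to 19.5 to 64.7 FPKM with baicalin and 11.1 to 38.7 with saline, meningeal ones (5) to 5.22 to 6.29 and 5.2 to 13.1, blood ones (5) to 248 to 464 and 204 to 477, and thalamic ones (5) to 9.79 to 11.1 and 7.88 to 9.43. No marker of any list was at 0 in all libraries. In FPKM the thalamic sums alone did not overlap between groups, and in CPM those of CA1 alone did not, at 488 to 615 CPM with baicalin and 621 to 652 CPM with saline. Of the 5 CA1 markers 4 had negative log2 changes (median -0.35). In edgeR 2, Man1a (-0.36) and Fibcd1 (-0.35), were lower at an unadjusted p under 0.05, against 5.46% of all tested genes. The other, Mpped1, was at 0.22, with 207, 88.3 and 201 CPM in saline libraries 1 to 3. Of the 5 dentate granule cell markers 4 were positive and 1 negative (median 0.27), and their sum was lowest in saline library 2, at 35.3 FPKM. The part of these markers in the Nduf values was not tested.

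Core catalytic subunits had a median log2 change of 0.048 (5 of 7 positive), and accessory structural subunits one of 0.18 (30 of 30 positive). Whether the 2 sets differ was not tested, and their median exon lengths were 2178 and 1234 bp. With the length trend removed the medians were 0.034 and 0.086. Groups did not overlap for 3 of 7 core and 14 of 30 accessory subunits (42.9% and 46.7%), all higher with baicalin, against 9.93% of all tested genes. Summed core levels overlapped between groups in CPM, at 779 to 829 CPM with baicalin and 771 to 790.4 CPM with saline. Of the core subunits 0 of 7 passed in edgeR, limma or DESeq2. In edgeR 1 of 7 was higher at an unadjusted p under 0.05, against 6.34% of all tested genes, and 0 were lower, against 5.46%.

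Ndufs7, a Q module core subunit that carries the terminal iron-sulfur cluster, had 38.8, 40 and 41 CPM with baicalin, against 40.5, 40.6 and 40.9 CPM with saline. Its log2 change was -0.027 ± 0.052 (SE), and its groups overlapped, with saline values close to each other. Ndufs1, the largest iron-sulfur subunit of the N module, had 186, 170.3 and 178 CPM with baicalin and 159, 174 and 186 CPM with saline, and a log2 change of 0.044.

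Ndufv1, which binds NADH and the flavin, had 105, 100.1 and 102 CPM with baicalin, against 98.7, 98.5 and 101 CPM with saline. Baicalin library 2 lay within the saline range there, and the log2 change was 0.048. Ndufv2, its iron-sulfur partner, had 137, 117 and 135 CPM with baicalin, against 116, 114 and 111 CPM with saline (log2 change 0.19 ± 0.068, SE, adjusted p = 0.395 in edgeR). Groups did not overlap, but baicalin library 2 was close to saline library 1. The Q module subunits Ndufs3 and Ndufs8 had log2 changes of 0.11 and 0.13, also without overlap.

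Among accessory subunits of the N module, Ndufa12 had the smallest p of all Nduf genes. Ndufa12 (ENSMUSG00000020022, mm10, chromosome 10, 94198720 to 94221443) had 95, 95.3 and 97.5 CPM with baicalin, against 75, 78.7 and 71 CPM with saline. All 3 baicalin values were above all 3 saline values, and the baicalin libraries lay within a narrow range. Its log2 change was 0.36 ± 0.053 (SE), with an adjusted p of 0.171 in edgeR and of 9.04e-05 in DESeq2. Leaving out 1 library moved it between 0.32 and 0.4, and with the length trend removed it was 0.29. Gm15920, a copy identical over 99.5% of 402 aligned bases, had 10.4 CPM on average, 12.1% of the Ndufa12 value, so some reads may be shared. Ndufaf2, an assembly factor and paralog that holds the Ndufa12 position during assembly, had 10.6, 12.1 and 14.1 CPM with baicalin, against 12.6, 13.5 and 11.3 CPM with saline. Its groups overlapped, with a log2 change of -0.024 ± 0.13 (SE).

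Other N module genes had values between those of Ndufs1 and Ndufa12. Ndufs6, a zinc-binding subunit, had 47.2, 52.2 and 58.8 CPM with baicalin, against 48, 40.2 and 36.7 CPM with saline, and a log2 change of 0.34 ± 0.12 (SE). Baicalin library 1 lay below saline library 1, so its groups overlapped, and its exons overlap those of Mrpl36 on the other strand. Ndufv3 had 70.6, 73 and 72.6 CPM with baicalin, against 66.3, 53.3 and 60.9 CPM with saline, without overlap (log2 change 0.26). Ndufa6, a protein of the LYR family that binds the acyl carrier protein, was at 0.20 and Ndufs4, whose loss in mice gives a Leigh-like encephalopathy, at 0.12, both without overlap. Ndufa7 was at 0.19 and Ndufa2 at 0.18, with overlap. The N module median was 0.19 (10 of 10 positive), and 0.14 with the length trend removed, against 0.11 (3 of 5) and 0.0086 for the Q module, where Ndufa5 was at 0.12. Without baicalin library 3 the medians were 0.14 for the N module and 0.039 for the Q module.

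**Figure D3:**
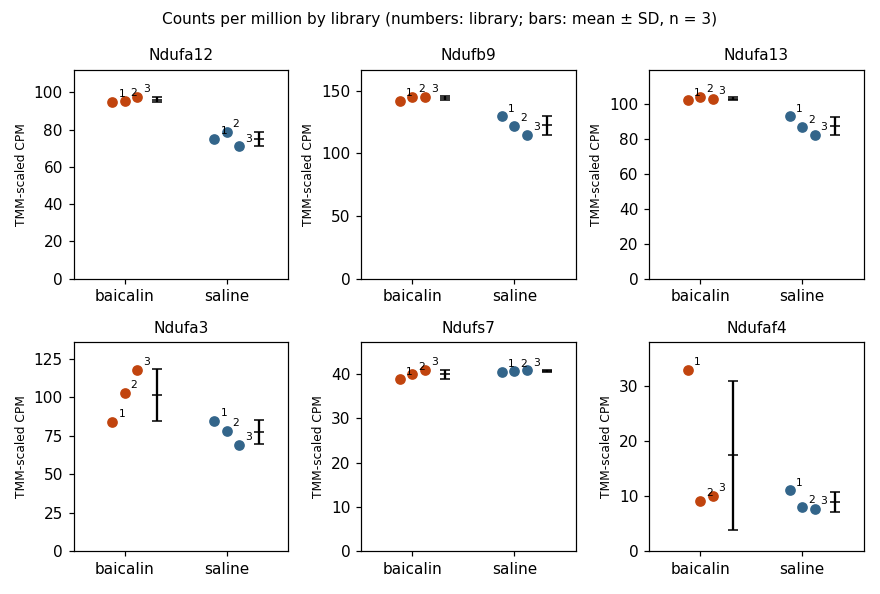
TMM-scaled CPM of 6 Nduf genes by library, baicalin left and saline right; numbers are libraries and black bars the mean ± SD (n = 3). Ndufa12, Ndufb9 and Ndufa13 separate the groups, Ndufa3 and Ndufs7 overlap, and the Ndufaf4 mean with baicalin rests on library 1 at 32.9 CPM.

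In the proximal membrane arm 10 of 10 subunits had positive log2 changes (median 0.19, and 0.059 with the length trend removed). For 5 of 10 the groups did not overlap, all higher with baicalin, against 9.93% of all tested genes. Ndufa13, also known as GRIM-19, had 102, 104 and 103 CPM with baicalin, against 92.9, 86.7 and 82.3 CPM with saline (chromosome 8, 69894180 to 69902558). The baicalin libraries were close to each other and all above saline, with a log2 change of 0.24 ± 0.055 (SE) and an adjusted p of 0.32 in edgeR and 0.0453 in DESeq2; its exons overlap those of Tssk6 on the other strand. Ndufa8, a cysteine-rich protein facing the intermembrane space, had 115, 109 and 117 CPM with baicalin, against 98.9, 100.4 and 96.1 CPM with saline. It also did not overlap, with a log2 change of 0.21 ± 0.044 (SE) and adjusted p = 0.31 in edgeR.

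Some of the larger log2 changes in this arm rested on graded baicalin values. Ndufa3 had 84.2, 103 and 118 CPM with baicalin, against 85, 78.5 and 69.3 CPM with saline, so baicalin library 1 fell within the saline range. Its log2 change of 0.39 ± 0.13 (SE) had adjusted p = 0.382 in edgeR, and its exons overlap those of Tfpt on the other strand. Ndufa1, the subunit with the shortest exons (419 bp), had 44.1, 51.7 and 60 CPM with baicalin, against 41.8, 42.6 and 43.8 CPM with saline, and a log2 change of 0.28. That value was 0.16 without baicalin library 3 and 0.084 with the length trend removed. Ndufc2 had 56.5, 64.6 and 79.1 CPM with baicalin, against 61, 59.7 and 57.1 CPM with saline (0.17, and 0.029 without baicalin library 3), and Ndufc1 was at 0.077. Of the rest, Ndufs5 (0.22) and Ndufa9 (0.096), a member of the short-chain dehydrogenase family, did not overlap, and Ndufa11 (0.11) and Ndufa10 (0.038) did.

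The distal membrane arm had 12 of 12 positive log2 changes, with a median of 0.13, which became 0.084 without baicalin library 3 and 0.077 after removal of the length trend. Ndufb9, an LYR protein with the highest mean level of all structural subunits (113 FPKM), had 142, 145 and 145 CPM with baicalin, against 129.6, 122 and 115 CPM with saline. Groups were apart, with a log2 change of 0.24 ± 0.052 (SE) and an adjusted p of 0.31 in edgeR and 0.0445 in DESeq2. Its exons overlap those of Gm49356 on the same strand. Ndufb10 had 101, 104 and 109 CPM with baicalin, against 93.2, 95.1 and 87.5 CPM with saline (log2 change 0.19, adjusted p = 0.346 in edgeR). Ndufb7 (0.21), Ndufb8 (0.17) and Ndufb3 (0.15, and 0.0048 with the length trend removed) also did not overlap. The row named Ndufb1-ps, which RefSeq lists as the protein-coding gene Ndufb1, was at 0.23 with overlap, and its exons overlap those of Cpsf2.

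Near 0 were Ndufb2 (0.01), Ndufab1 (0.026), the mitochondrial acyl carrier protein gene, Ndufb6 (0.048), Ndufb11 (0.054) and Ndufb5 (0.072). Ndufb11 had 69.6, 72.8 and 90.5 CPM with baicalin, against 76.5, 74.8 and 73.1 CPM with saline, so baicalin library 3 was highest and the other baicalin libraries lowest. Ndufb2 had the lowest level of the structural subunits at 5.73 FPKM, with summed exons of 5628 bp. Such long annotated exons divide the count of a short mRNA over more bases, and at 36.9 CPM its count was close to that of Ndufb4 (37.6 CPM, 17.2 FPKM). Ndufb4 itself was at 0.11. Its pseudogene Ndufb4c, identical over 390 aligned bases, was at 0.23 with 24 CPM, and reads from the shared stretch cannot be told apart.

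**Figure D4:**
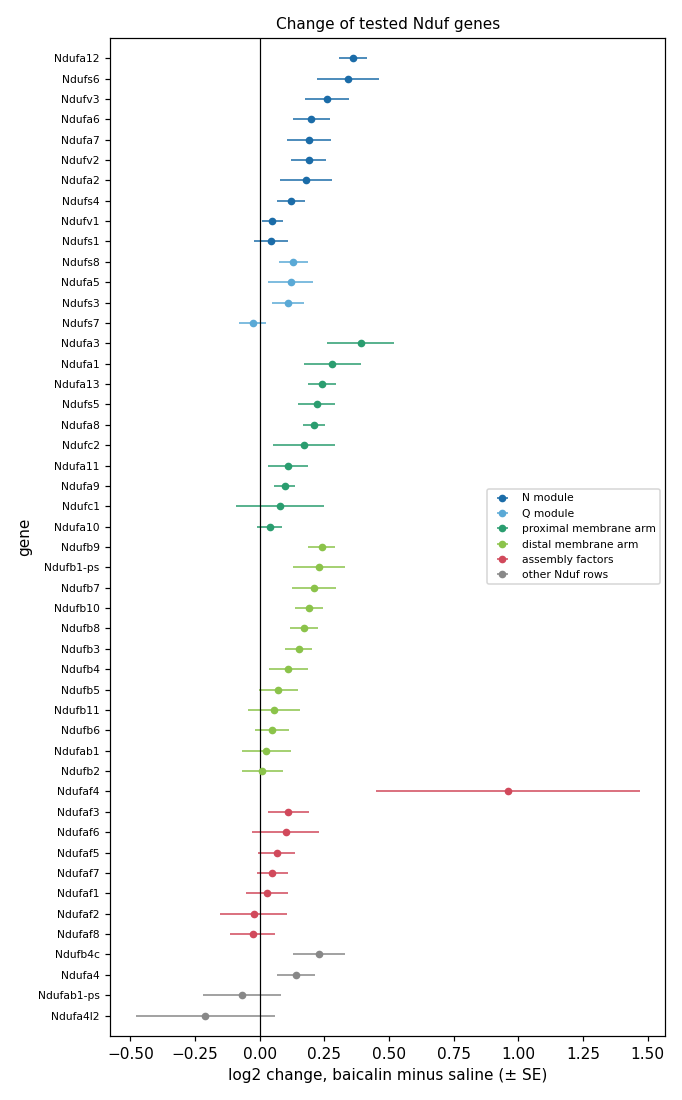
Log2 change, baicalin minus saline, of 48 tested Nduf genes with its standard error from edgeR, coloured by module. Structural points lie at or below 0.39, and Ndufaf4 lies apart at 0.96 with a wide error.

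The median log2 change of assembly factors, 0.057, was nearer to 0 than that of structural subunits, 0.15. Of 8 Ndufaf genes 6 were positive. With the length trend removed 5 were positive and the median was 0.0045, and under TPM scaling it was -0.022. In edgeR, limma and DESeq2, 0 of 8 passed. At an unadjusted p under 0.05 in edgeR there were 0, against 6.34% of all tested genes higher and 5.46% lower. Groups did not overlap for 0, against 9.93% of all tested genes higher and 9.52% lower. They were lower in level, with a median of 9.15 FPKM against 46 FPKM for structural subunits, and similar in exon length (1802 bp against 1569 bp). Among the 37 structural subunits, level in FPKM and log2 change had a Spearman rho of 0.39 across genes, which are not independent. The part of level in the values of the 2 classes was not tested. The difference of medians, structural minus assembly factors, was 0.097 on the log2 scale, and 0.11 without Ndufaf4. The per-library difference of class means had a replicate SD of 0.12 with Ndufaf4 included, a gene high in baicalin library 1. That SD is not the spread of a difference of medians, and whether the classes differ was not tested. The difference of medians was 0.056 without baicalin library 3, the lowest value with 1 library left out, and 0.066 with the length trend removed.

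Ndufaf4 (ENSMUSG00000028261, chromosome 4, 24898083 to 24905001), a partner of Ndufaf3 in early assembly, had 32.9, 9.19 and 10.1 CPM with baicalin, against 11.1, 7.97 and 7.74 CPM with saline. A single library, baicalin 1, was high, and the other baicalin libraries lay within the saline range. The log2 change was 0.96 ± 0.51 (SE), with adjusted p = 0.489 in edgeR, and 0.11 without baicalin library 1. Few genes share such a pattern: in 0.54% of all tested genes the highest library was at least 2-fold above every other. Ndufaf4 has no exon overlap with another gene and no near-identical copy in the table.

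The other assembly factors kept within a narrow band. Ndufaf3 had 28, 29 and 31.1 CPM with baicalin, against 28.6, 28.2 and 25 CPM with saline (log2 change 0.11 ± 0.08, SE). Baicalin library 1 lay within the saline range. Ndufaf5, which hydroxylates an arginine of Ndufs7, had 29, 26.5 and 26.9 CPM with baicalin, against 27.2, 27 and 24.5 CPM with saline, and a log2 change of 0.065. Its partner Ndufaf8 had 8.29, 8.81 and 9.38 CPM with baicalin, against 8.95, 9.27 and 8.79 CPM with saline, and a log2 change of -0.028. Ndufaf7, a methyltransferase, was at 0.049, Ndufaf1, which acts in membrane arm assembly, at 0.028, and Ndufaf6 at 0.10. Groups overlapped for all of these genes.

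By library, the mean over structural subunits minus that over assembly factors was -0.19, 0.12 and 0.11 in baicalin libraries 1 to 3, against -0.028, -0.0016 and -0.0095 in saline libraries 1 to 3. Without Ndufaf4 it was -0.0049, 0.083 and 0.085 with baicalin, against -0.031, -0.063 and -0.069 with saline. In baicalin library 1 the value was negative both ways, and much smaller in size without Ndufaf4. The median of the remaining 7 assembly factors was 0.049.

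**Figure D5:**
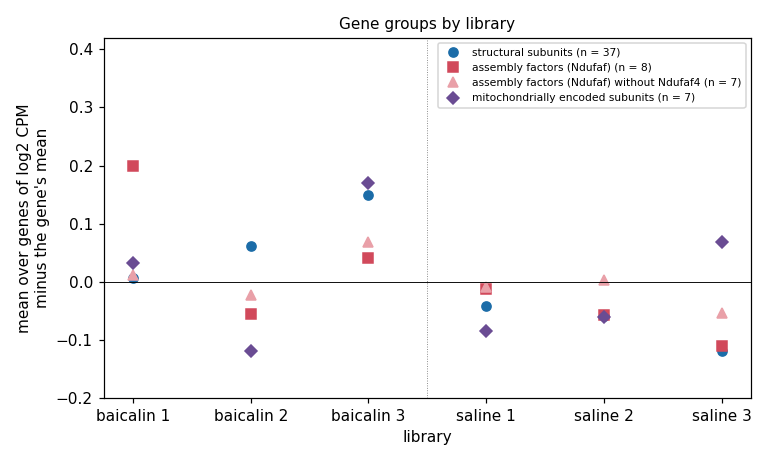
Mean over genes of log2 CPM minus each gene's mean, by library, for structural subunits, assembly factors with and without Ndufaf4, and mitochondrially encoded subunits. Structural subunits range from 0.15 in baicalin library 3 to -0.12 in saline library 3, and the assembly factor mean in baicalin library 1 (0.20) drops to 0.011 without Ndufaf4.

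Of the remaining Nduf rows, Ndufa4, now placed in cytochrome c oxidase and not complex I, had 129, 142 and 156 CPM with baicalin, against 133, 129.8 and 124 CPM with saline. Baicalin library 1 lay within the saline range, and the log2 change was 0.14 ± 0.072 (SE). Its hypoxia-inducible paralog Ndufa4l2 had 2.1, 1.83 and 3.32 CPM with baicalin, against 2.76, 2.26 and 3.38 CPM with saline (log2 change -0.21 ± 0.27, SE). Library 3 was the highest of each group. The pseudogene Ndufab1-ps was at -0.068, with 1.4 to 1.62 CPM with baicalin and 1.48 to 1.72 CPM with saline.

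Mitochondrially encoded subunits did not move with the nuclear ones in every library. Their log2 changes were 0.13 for mt-Nd1, 0.05 for mt-Nd2, 0.18 for mt-Nd3, 0.0038 for mt-Nd4, 0.009 for mt-Nd5, 0.041 for mt-Nd6 and -0.024 for mt-Nd4l. Of 7 genes 0 passed in edgeR, limma or DESeq2. At an unadjusted p under 0.05 in edgeR there were 0, against 6.34% of all tested genes higher and 5.46% lower. Their mean relative to all libraries was 0.033, -0.12 and 0.17 in baicalin libraries 1 to 3, against -0.085, -0.061 and 0.069 in saline libraries 1 to 3. Baicalin library 2 was lowest for these genes and above 0 for the structural subunits. Only mt-Nd3 did not overlap between groups, with 1172, 1167 and 1531 FPKM with baicalin and 1154, 1125 and 1157 FPKM with saline. Of all tested genes 9.93% were higher without overlap. With the length trend removed 1 of 7 was positive.

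Other genes of the pathway were read from lists, of which 0 genes passed the adjusted threshold in edgeR. Nuclear structural subunits of complexes II to V had 33 of 38 positive log2 changes (median 0.13), where 49.8% of all tested genes did. At an unadjusted p under 0.05 in edgeR, 15 were higher, against 6.34% of all genes. Without overlap 16 were higher, against 9.93%, and DESeq2 called 4 higher, against 0.974%. These counts lie close to those of the complex I structural subunits (15, 17 and 3 of 37), and with the length trend removed the medians were 0.077 for complexes II to V and 0.07 for complex I. Cox4i1, a cytochrome c oxidase subunit, had 406, 416 and 396 CPM with baicalin, against 333, 325 and 314 CPM with saline, apart in all libraries (log2 change 0.33, adjusted p 0.127 in edgeR and 5.77e-06 in DESeq2). Atp5g3, for the ATP synthase c ring, was at 0.23 and the cytochrome c oxidase gene Cox7a2 at 0.17. Of the 5 genes with negative values, Atp5d (-0.081), Atp5j (-0.19) and Cox8a (-0.17) had the smallest p-values.

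Assembly factors without the Nduf name had values in both directions. Of 11 such genes 7 were positive (median 0.036, and -0.02 without baicalin library 3). In edgeR 1 was higher and 1 lower at an unadjusted p under 0.05, against 6.34% and 5.46% of all tested genes. Dmac2, which acts in distal membrane arm assembly, had 29.6, 30.5 and 34.2 CPM with baicalin, against 27.5, 27 and 27.6 CPM with saline (log2 change 0.2, adjusted p = 0.395 in edgeR). Tmem126a, for an inner membrane protein, had 13.1, 13 and 13 CPM with baicalin, against 14.4, 15.7 and 15.1 CPM with saline (log2 change -0.21, adjusted p = 0.384 in edgeR). Groups were apart for both genes, in opposite directions. Timmdc1 (0.15), Aifm1 (0.12) and Tmem70 (-0.28) followed by p; the Tmem70 value rested on baicalin library 3, at 18.1 CPM against 34.9 and 36.2 CPM in baicalin libraries 1 and 2.

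Enzymes of the TCA cycle and matrix that feed NADH to the complex had 10 of 15 positive log2 changes (median 0.04). Idh2 (0.17), Suclg1 (0.15) and Fh1 (0.12) were each higher at an unadjusted p under 0.05 in edgeR, as were 6.34% of all tested genes. Regulators of respiratory gene expression had 2 of 9 positive (median -0.084). Gabpa, the DNA-binding subunit of the ETS factor NRF2/GABP, had 23.3, 21.4 and 23.7 CPM with baicalin, against 25.8, 26.3 and 27.2 CPM with saline, and was lower at that p (log2 change -0.21, adjusted p = 0.36 in edgeR). Yy1 was at -0.081, also with lower values in all baicalin libraries, and the coactivator gene Ppargc1a at -0.22 with overlap. Nrf1, whose letters stand in 21.2% of the structural promoter windows, had 7.91, 11.1 and 16.9 CPM with baicalin, against 8.39, 9.63 and 19.4 CPM with saline. Its library 3 was highest in each group, and its log2 change was -0.056 ± 0.39 (SE).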

How the data were processed

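Total RNA of 6 hippocampal libraries, depleted of ribosomal RNA per the labels, was sequenced. For each gene the deposited table holds the authors' read counts (whole numbers) and the authors' FPKM values. The submitters' processing notes name mm10, HISAT2, StringTie, bcl2fastq 2.0, limma and DESeq2, with no roles; strand and shared reads in the counting are not stated. Another 12 columns of sample values fit no label here and stayed out.

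Counts of the 13153 genes averaging 1 FPKM or more were scaled by TMM and tested in edgeR 4.0.16 (R 4.3.3) by the quasi-likelihood test, baicalin minus saline, with Benjamini-Hochberg adjustment over all tested genes (threshold 0.05). The SE is the size of the log2 change over the square root of F. Alternatives used DESeq2 1.42.0 and limma 3.58.1. Members, modules and lists were chosen with earlier results of these data known. The genes named were the core subunits, the smallest p-values per class and direction, the highest and lowest levels, Ndufa4, Ndufa4l2 and the mt-Nd genes; all other Nduf genes were added after their values were seen. A member is counted but its values are not reported here. On simulated counts of 13153 genes the test recovered 34.3% of 1.5-fold, 79.1% of 2-fold and 100% of 4-fold changes, and 8 of its 150 calls were false. The largest structural subunit change, that of Ndufa3, was 1.31-fold, so recovery of changes as small as these was not simulated.

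Exon lengths and overlaps came from GENCODE M21 (38 of 50 members with the same coordinates), promoters from RefSeq. Of the members, 12 have a near-identical stretch (at least 95% over 200 bases) in another gene of the table, repeats in Ndufaf2 included, 3 overlap exons on the same strand and 18 on the opposite strand; their counts are uncertain.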

Additional observations from a re-analysis of the deposited data

How the results depend on the processing

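Among alternatives to the edgeR fit, the count of structural subunits past the threshold was 0 except with DESeq2 (3), and that of assembly factors was 0 in each. Over all genes the count was 6, against 211 with DESeq2, 2 with limma on log2(FPKM + 0.1), 0 with a replicate block, and 2 to 39 without 1 library (39 when baicalin 1 was omitted, 2 for baicalin 3, 10 for saline 2 and 14 for saline 3). The block also left 0 of 37 structural subunits past the threshold. Deviations of same-numbered libraries from their group means had correlations of 0.0909, 0.0524 and -0.0239 across genes. Those of differently numbered libraries ran from -0.098 to 0.0546. With 3 libraries per group such values cannot tell whether same-numbered libraries were paired. The structural median was 0.072 under TPM scaling, 0.07 with the length trend removed and 0.11 to 0.18 without 1 library, and stayed within 1 replicate SD (0.061) in the other alternatives, among them the 16 subunits with no copy or exon overlap (0.18). Higher structural subunits at an unadjusted p under 0.05 numbered 5 under TPM scaling and 8 to 16 without 1 library, against 15. Those without overlap numbered 7 under TPM scaling, against 17. Without 1 library they numbered 18 to 24. Omission of a library can only keep or raise this count, so that range does not show how stable it is. Alternatives for these 2 counts, for Ndufaf4 and for the 16 subunits were chosen after seeing the data. The all-gene median under TPM scaling was -0.081. The difference of the 2 class medians was 0.056 to 0.13 without 1 library.

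Of 56 Nduf and mt-Nd genes 36 kept their sign in each alternative counted for them. Removal of the length trend was not counted for single mt-Nd genes, of which 1 of 7 was positive with it and 6 without. Under TPM scaling alone 4 other genes (Ndufaf5, Ndufaf7, Ndufb5 and Ndufv1) changed sign, and the median of all genes was then -0.081. The cause of the sign changes was not tested. Genes that turned from positive to negative under TPM scaling were Ndufaf1 (-0.051), Ndufaf5 (-0.014), Ndufaf7 (-0.03), Ndufa10 (-0.042), Ndufab1 (-0.057), Ndufb11 (-0.032), Ndufb2 (-0.073), Ndufb5 (-0.0086), Ndufb6 (-0.033), Ndufc1 (-0.0093), Ndufs1 (-0.035), Ndufv1 (-0.032), mt-Nd2 (-0.033), mt-Nd4 (-0.078), mt-Nd5 (-0.071) and mt-Nd6 (-0.043). Genes already negative in the edgeR fit are not in this list. Among Nduf genes, Ndufaf1 (-0.05), Ndufb11 (-0.076), Ndufb6 (-0.12) and Ndufc1 (-0.00086) turned negative with the length trend removed. In limma Ndufb2 was at -0.00013 and -0.00047 (pseudocounts 1 and 0.1) and mt-Nd4 at -0.0063 with both; mt-Nd4 was also at -0.0063 by library totals and -0.0032 with at least 5 FPKM, and mt-Nd5 at -0.00057 by library totals. Without 1 library the range spanned 0 for Ndufaf1 (-0.046 to 0.064), Ndufaf2 (-0.14 to 0.068), Ndufaf8 (-0.076 to 0.011), Ndufab1-ps (-0.13 to 0.0016), Ndufa10 (-0.003 to 0.065), Ndufab1 (-0.041 to 0.087), Ndufb11 (-0.072 to 0.12), Ndufb2 (-0.069 to 0.058), Ndufc1 (-0.055 to 0.23), Ndufs1 (-0.012 to 0.099), mt-Nd2 (-0.028 to 0.14), mt-Nd4 (-0.051 to 0.09), mt-Nd5 (-0.045 to 0.087), mt-Nd6 (-0.042 to 0.16) and mt-Nd4l (-0.093 to 0.022).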
